A study of Mus musculus with 128 samples.

Results

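The choroid plexus genes considered here were Ttr, Folr1, Kl, Aqp1, Otx2, Kcnj13, Slc4a5 and Calml4, together with Clic6 and Kcne2. They were chosen by name as genes of the choroid plexus epithelium and made up 10 of the 21225 probe sets measured on the array. Clic6 and Kcne2 lie in the part of mouse chromosome 16 (MMU16) that is triplicated in the 3 mouse models of Down syndrome, Dp(16)1/Yey, Ts65Dn and Ts1Cje, so that trisomic animals of each carry 3 copies of each. The other 8 genes lie on other chromosomes and have 2 copies in trisomic and euploid animals alike. These 8 are called the disomic genes, and the mean of their log2 signals in a sample is called the disomic signal.

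Gene expression was measured on Affymetrix mouse gene arrays in whole forebrain of embryos at embryonic day (E) 15.5 and in cerebral cortex, hippocampus and cerebellum of 6 to 7 month old males. Trisomic embryos and their euploid littermates numbered 5 and 5 for Ts1Cje, 6 and 7 for Ts65Dn by the sample labels, and 6 and 6 for Dp(16)1/Yey. Every embryo group held both sexes. In Ts65Dn and Ts1Cje the trisomic embryos were mostly male and the euploid embryos mostly female. In adults there were 5 trisomic and 5 euploid animals of each model, and every adult gave all 3 regions. In all, 125 tissue samples came from 65 animals. The males of the Dp(16)1/Yey and Ts1Cje lines were mated with C57BL/6J or C57BL/6N females (the labels name C57BL/6J alone), and Ts65Dn females with B6EiC3Sn.BLiAF1 males, so the euploid littermates of Ts65Dn mice have a different strain background. Trisomic Ts1Cje mice have also lost 1 copy of several MMU12 genes, and trisomic Ts65Dn mice carry an extra copy of genes from the centromeric end of MMU17. No animal was treated. None of the 10 genes lies in these other segments.

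The choroid plexus is a sheet of epithelium that hangs into the brain ventricles, makes cerebrospinal fluid and exchanges hormones, vitamins and ions between blood and that fluid. It is not part of the cortex, hippocampus or cerebellum, but it is attached along the edge of the hippocampus and under the cerebellum, and a dissected piece can take more or less of it along. Its cells pack the membrane with transporters and channels and secrete transthyretin in large amounts. In bulk tissue, fewer cells of a type and less RNA per cell cannot be told apart.

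On the GRCm38.p6 assembly, Kcne2 spans chr16:92292389-92298133 and Clic6 spans chr16:92498147-92541241. The stretch of 200.014 kb between them holds 5 protein-coding genes, Smim11, Fam243, Smim34, Kcne1 and Rcan1. The disomic genes lie on chromosomes 1 (Kcnj13), 5 (Kl), 6 (Aqp1 and Slc4a5), 7 (Folr1), 9 (Calml4), 14 (Otx2) and 18 (Ttr). Because most of the 10 genes moved together from sample to sample, the stretches before their starts were searched for the core of the motif bound by OTX2, TAATCC, which reads GGATTA on the other strand. The RefSeq windows ran from 250 bases before to 50 bases after a start, and 7 of the 10 genes had 11 such windows between them. Only 1 of these windows held the motif (9.09%), a window of Otx2 itself, against 2320 of 32851 windows of all genes (7.06%). The 250 bases before the start are shown for 3 genes, 5′ to 3′ on the gene's strand: Kcne2, the triplicated member with a window (chr16:92292139-92292388, plus strand), Kcnj13, the disomic channel gene that followed the disomic signal most closely in adults (chr1:87394730-87394979, minus strand), and the Otx2 start with the match (chr14:48665110-48665359, minus strand). Capitals mark the match, which begins at position -211 from the start.
Kcne2: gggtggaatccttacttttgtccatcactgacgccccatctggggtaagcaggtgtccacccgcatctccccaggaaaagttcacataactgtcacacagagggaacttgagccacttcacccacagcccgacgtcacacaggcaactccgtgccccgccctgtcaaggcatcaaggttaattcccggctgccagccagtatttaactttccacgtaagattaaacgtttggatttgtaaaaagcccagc
Kcnj13: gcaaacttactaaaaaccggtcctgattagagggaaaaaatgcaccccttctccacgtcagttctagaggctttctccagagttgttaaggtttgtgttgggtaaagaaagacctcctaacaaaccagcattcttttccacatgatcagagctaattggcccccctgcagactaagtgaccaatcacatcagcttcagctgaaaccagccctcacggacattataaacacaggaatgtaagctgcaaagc
Otx2: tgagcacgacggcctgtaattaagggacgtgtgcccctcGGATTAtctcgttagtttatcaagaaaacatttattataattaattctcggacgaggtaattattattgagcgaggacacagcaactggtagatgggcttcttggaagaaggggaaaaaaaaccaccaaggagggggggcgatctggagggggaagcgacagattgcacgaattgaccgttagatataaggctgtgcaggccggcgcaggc

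All values are log2 signals after RMA, a method that corrects the background, equalises the arrays and summarises the probes of a gene. The 12 tables, 1 for each model and tissue, were normalized separately, so levels are comparable within a table, and levels set beside each other across tables are a description only. As a measure of the signal of silent genes, the 95th percentile of the mean signals of 1098 olfactory receptor genes was taken in each table. Ttr, Folr1, Aqp1, Otx2, Kcnj13, Slc4a5, Clic6 and Kcne2 were above it in all 12 tables, Kl in 10 and Calml4 in 5. In the 3 hippocampus tables all 10 genes were above it. Kl was at the level of silent genes in the embryos of Dp(16)1/Yey and Ts65Dn, and Calml4 in all embryos, in cortex and in Dp(16)1/Yey cerebellum. The olfactory receptor median was 5.73 in the Ts1Cje E15.5 table and 3.39 to 4.46 in the other tables, so Ts1Cje embryo levels are not set against the other embryos here.

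Some samples stood apart before any genotype was considered. The disomic signal lay more than 1 log2 unit below the table's median in 5 adult samples. In Ts65Dn hippocampus these were 2 trisomic animals (6.36 and 6.37), in Dp(16)1/Yey hippocampus 1 trisomic (6.54) and 1 euploid animal (6.98), and in Dp(16)1/Yey cerebellum 1 euploid animal (6.23). Results that rest on them are given below with and without them. The threshold was chosen after the values were seen.

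**Figure D1:**
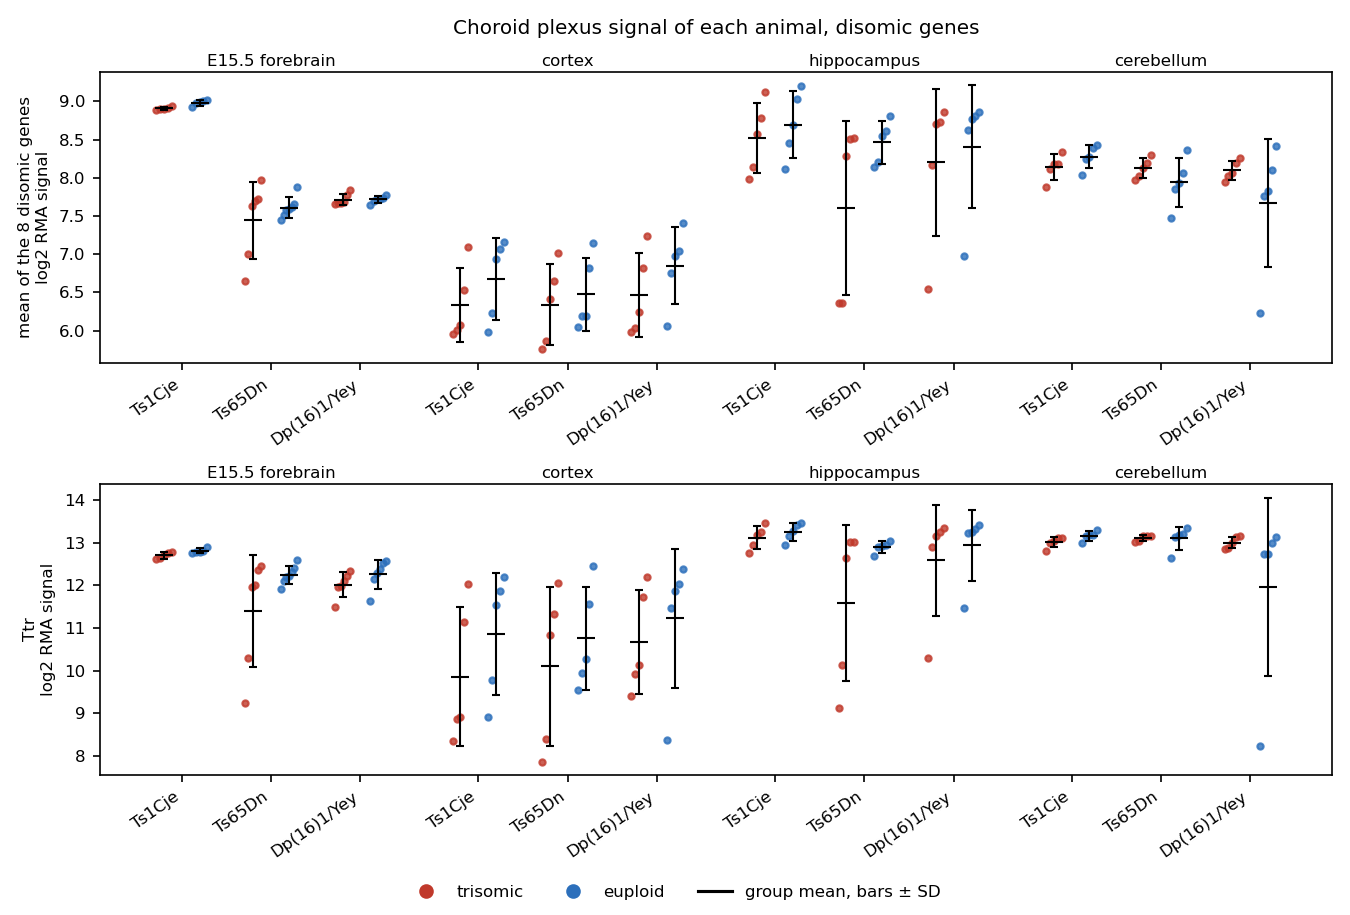
Each point is an animal; the upper panel gives the mean log2 RMA signal of the 8 disomic genes and the lower panel Ttr alone, by tissue and model, with the group mean and bars of 1 SD (n = 5 to 7 per group). The 5 samples that stood apart lie at 6.23 to 6.98 in hippocampus and cerebellum, and the trisomic and euploid groups overlap in every comparison.

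Ttr encodes transthyretin, the carrier of thyroid hormone and retinol that the choroid plexus secretes into cerebrospinal fluid, and it was the brightest of the 10 genes. In Ts1Cje E15.5 forebrain Ttr signals were 12.76, 12.61, 12.79, 12.64 and 12.72 in trisomic embryos, against 12.81, 12.76, 12.80, 12.91 and 12.80 in euploid embryos. All 10 embryos lay within a narrow band, and the 2 groups overlapped. In Ts65Dn E15.5 forebrain Ttr ran in trisomic embryos from 9.24 through a median of 12.00 to 12.46, against 11.91, 12.23 and 12.59 in euploid embryos. A pair of trisomic embryos, 1 female and 1 male, carried the low values, 9.24 and 10.30, and the other 4 lay within the euploid range. For Dp(16)1/Yey forebrain the lowest, median and highest Ttr signals were 11.49, 12.04 and 12.33 in trisomic embryos, against 11.64, 12.34 and 12.56 in euploid embryos. The groups overlapped, with the trisomic embryos toward the lower end.

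Ttr varied widely among the animals of adult cortex. In Ts1Cje cortex Ttr was 8.91, 8.35, 12.03, 8.86 and 11.15 in trisomic mice, against 11.54, 9.78, 8.91, 12.21 and 11.86 in euploid mice. Ts65Dn cortex gave 11.34, 10.83, 12.07, 8.41 and 7.86 in trisomic mice, against 10.28, 9.54, 11.55, 9.96 and 12.45 in euploid mice. For Dp(16)1/Yey cortex the signals were 12.19, 9.92, 10.14, 9.40 and 11.73 in trisomic mice, against 12.03, 12.39, 11.87, 11.48 and 8.37 in euploid mice. High and low animals were found in both genotypes of each model, and the range within each genotype was more than 2 log2 units. Across all 30 cortex samples Ttr ran between 7.86 and 12.45, and it spanned 9.13 to 13.5 in hippocampus, 8.24 to 13.4 in cerebellum and 9.24 to 12.9 in E15.5 forebrain.

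In Ts1Cje hippocampus Ttr was 13.47, 13.25, 13.18, 12.77 and 12.94 in trisomic mice, against 12.95, 13.42, 13.46, 13.27 and 13.17 in euploid mice. Ts65Dn hippocampus gave 9.13, 13.01, 10.14, 12.64 and 13.02 in trisomic mice, against 12.89, 12.68, 12.93, 12.96 and 13.04 in euploid mice. The 2 low trisomic samples of Ts65Dn carried this difference, since the other 3 trisomic animals overlapped with the euploid ones. In Dp(16)1/Yey hippocampus Ttr was 10.29, 13.26, 13.34, 12.91 and 13.16 in trisomic mice, against 13.32, 13.41, 13.24, 11.47 and 13.26 in euploid mice, with 1 low sample in each genotype. In cerebellum Ttr ran from 12.82 to 13.11 in trisomic Ts1Cje mice, against 12.99 to 13.31 in euploid mice, and from 13.01 to 13.17 in trisomic Ts65Dn mice, against 12.65 to 13.35 in euploid mice. Dp(16)1/Yey cerebellum gave 12.89, 13.13, 12.86, 12.99 and 13.16 in trisomic mice, against 12.74, 12.75, 13.13, 12.99 and 8.24 in euploid mice. Without the 1 euploid sample at 8.24, all Ttr values of the cerebellum lay within 1 log2 unit of each other.

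Samples with little Ttr were not the same animals in every region. The 2 Ts65Dn trisomic mice with hippocampal Ttr of 9.13 and 10.14 had 11.34 and 12.07 in cortex, and 13.15 and 13.01 in cerebellum. The Dp(16)1/Yey euploid mouse with 8.24 in cerebellum was also low in cortex, at 8.37, but had 13.26 in hippocampus. The trisomic Dp(16)1/Yey mouse with 10.29 in hippocampus was the highest of its group in cortex, at 12.19, and had 12.89 in cerebellum. In each of these 4 mice low Ttr was found in some regions and not in others. Dissection dates and array batches are not given in the labels, and their part in these values was not tested.

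Folr1 and Kl encode a receptor that carries folate into cerebrospinal fluid and klotho, a co-receptor for the hormone FGF23. In Ts65Dn hippocampus Folr1 was 6.02, 7.89, 6.08, 8.61 and 8.48 in trisomic mice, against 8.72, 7.84, 8.44, 8.27 and 7.94 in euploid mice. Kl in the same samples was 6.27, 9.18, 7.08, 9.45 and 9.39 in trisomic mice, against 9.57, 8.86, 9.33, 9.51 and 8.85 in euploid mice. Both genes were low in the same 2 trisomic mice as Ttr, and the other 3 overlapped with the euploid mice. In Ts65Dn cerebellum Folr1 was 7.82, 7.79, 7.51, 7.49 and 7.55 in trisomic mice, against 7.61, 7.46, 7.33, 6.49 and 7.31 in euploid mice. Only 1 of the euploid mice reached the trisomic values. In Ts65Dn E15.5 forebrain Kl lay between 5.40 and 5.77 in trisomic embryos, against 5.23 to 5.79 in euploid embryos, at the level of silent genes in both.

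The next group moves water and ions. Aqp1 is the water channel of the fluid-facing membrane, Slc4a5 a sodium bicarbonate cotransporter, and Kcnj13 an inward rectifier potassium channel. In Ts65Dn hippocampus Kcnj13 was 6.01, 9.46, 6.77, 9.99 and 9.74 in trisomic mice, against 10.21, 9.32, 9.88, 9.81 and 9.43 in euploid mice. Slc4a5 was 5.54, 7.05, 5.10, 7.37 and 7.22 in trisomic mice, against 7.62, 6.85, 7.63, 7.46 and 7.01 in euploid mice. Aqp1 was 5.59, 6.68, 5.52, 6.85 and 6.84 in trisomic mice, against 7.18, 6.61, 7.08, 7.02 and 6.49 in euploid mice. All 3 genes were low in the same 2 trisomic animals, and Kcnj13 was there more than 2 log2 units below every other sample.

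Kcnj13 in Dp(16)1/Yey cerebellum was 9.54, 9.66, 9.14, 9.39 and 9.65 in trisomic mice, against 9.05, 8.69, 9.74, 9.39 and 6.72 in euploid mice. Aqp1 there was 6.27, 6.53, 6.27, 6.32 and 6.35 in trisomic mice, against 6.10, 6.25, 6.88, 6.22 and 5.60 in euploid mice. The same euploid mouse was lowest for both, and another euploid mouse was highest for both, so that the trisomic values lay inside the euploid range. In the Ts65Dn embryos Kcnj13 fell with Ttr: the trisomic embryos with 9.24 and 10.30 for Ttr had 6.18 and 6.32 for Kcnj13, against 7.36 to 8.02 in the euploid embryos.

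Otx2 encodes the homeodomain factor needed to form and maintain the choroid plexus, and it is also used in patterning of the embryonic brain. Calml4 encodes a calmodulin-like protein known from the microvilli of the gut. Otx2 did not follow the rest in embryos: in Ts1Cje E15.5 forebrain it was 9.26, 10.03, 9.31, 9.91 and 9.80 in trisomic embryos, against 9.38, 10.07, 10.01, 9.41 and 10.01 in euploid embryos. Both genotypes held values near 9.3 and near 10.0, and the groups overlapped. In Ts65Dn hippocampus Otx2 was 7.59, 7.01, 5.48, 7.10 and 7.28 in trisomic mice, against 7.64, 6.93, 7.29, 7.17 and 7.03 in euploid mice. The trisomic mouse with the lowest Ttr had the highest Otx2 of the trisomic group, whereas the other low mouse had the lowest. Calml4 in these samples was 4.71, 5.98, 4.77, 6.05 and 6.23 in trisomic mice, against 6.65, 6.09, 6.29, 6.17 and 5.86 in euploid mice, low in both. In Ts65Dn cerebellum Calml4 was 5.84, 5.72, 5.61, 5.68 and 5.56 in trisomic mice, against 5.39, 5.57, 5.39, 5.00 and 5.34 in euploid mice. The groups met only at the lowest trisomic and the highest euploid value.

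Trisomic and euploid animals of each table were compared with limma on all 21225 probe sets, and the p-values of all 12 comparisons were adjusted together by Benjamini-Hochberg, with an adjusted p under 0.10 as the call. Across all probe sets 0.189% of the tests were called. None of the 96 tests of the disomic genes was called, and 29 of the 96 differences were positive. Within a comparison, 43.6% to 59.3% of all probe sets had a positive difference. The limma test gave an unadjusted p under 0.05 in 10 of the 96 tests, against 6.24% of all tests, and the methods' t-test also called none. Those 10 were spread over 6 of the genes and over both directions: Ttr in Ts1Cje embryos (-0.11), Kl in Dp(16)1/Yey embryos (0.28), Slc4a5 in Ts65Dn cortex (-0.43), Otx2 in Dp(16)1/Yey cortex (-0.56) and in Ts1Cje cerebellum (-0.19), Calml4 in Ts65Dn hippocampus (-0.66), in Ts1Cje cerebellum (-0.21) and in Ts65Dn cerebellum (0.34), and Folr1 in Ts1Cje cerebellum (-0.27) and in Ts65Dn cerebellum (0.40), all as log2 differences of trisomic minus euploid. The smallest adjusted p of a disomic gene was 0.469, for Calml4 in Ts65Dn cerebellum. Trisomic and euploid samples overlapped for every disomic gene in all 12 comparisons.

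The mean disomic signal was nevertheless lower in trisomic than in euploid animals in 10 of the 12 tables. The largest deficit was in Ts65Dn hippocampus, at 7.61 ± 1.14 in trisomic mice and 8.46 ± 0.28 in euploid mice (SD, n = 5 each), a log2 difference of -0.86. The 2 low trisomic mice carried this deficit: without them the signal was 8.44 ± 0.14 in trisomic mice (n = 3) and 8.46 ± 0.28 in euploid mice (n = 5), a difference of -0.02. With them, all 8 genes were lower, most of all Kcnj13 (-1.34) and Ttr (-1.31), with an adjusted p in limma of 0.821 and 0.819. The exceptions were the cerebella of Ts65Dn, at 8.12 ± 0.13 in trisomic and 7.94 ± 0.32 in euploid mice, and of Dp(16)1/Yey, at 8.10 ± 0.13 in trisomic and 7.67 ± 0.84 in euploid mice (SD, n = 5 each). Without the low euploid sample of Dp(16)1/Yey cerebellum the euploid mean was 8.03 ± 0.30 (n = 4), and the difference was 0.07. In Dp(16)1/Yey hippocampus the difference was -0.15 without the low sample of each genotype, and no disomic gene was called in any comparison without the 5 samples. Cortex and embryos held none of the 5 samples. The difference was -0.39 in Dp(16)1/Yey cortex, with all 8 genes lower, and -0.34 in Ts1Cje cortex, with 7 of 8 lower. In Ts1Cje E15.5 forebrain all 8 genes were lower too, at 8.91 ± 0.02 in trisomic and 8.98 ± 0.04 in euploid embryos (SD, n = 5 each). The SD of a group ran between 0.0199 and 1.14, and the adult regions share animals, so the 12 tables are not independent.

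**Figure D2:**
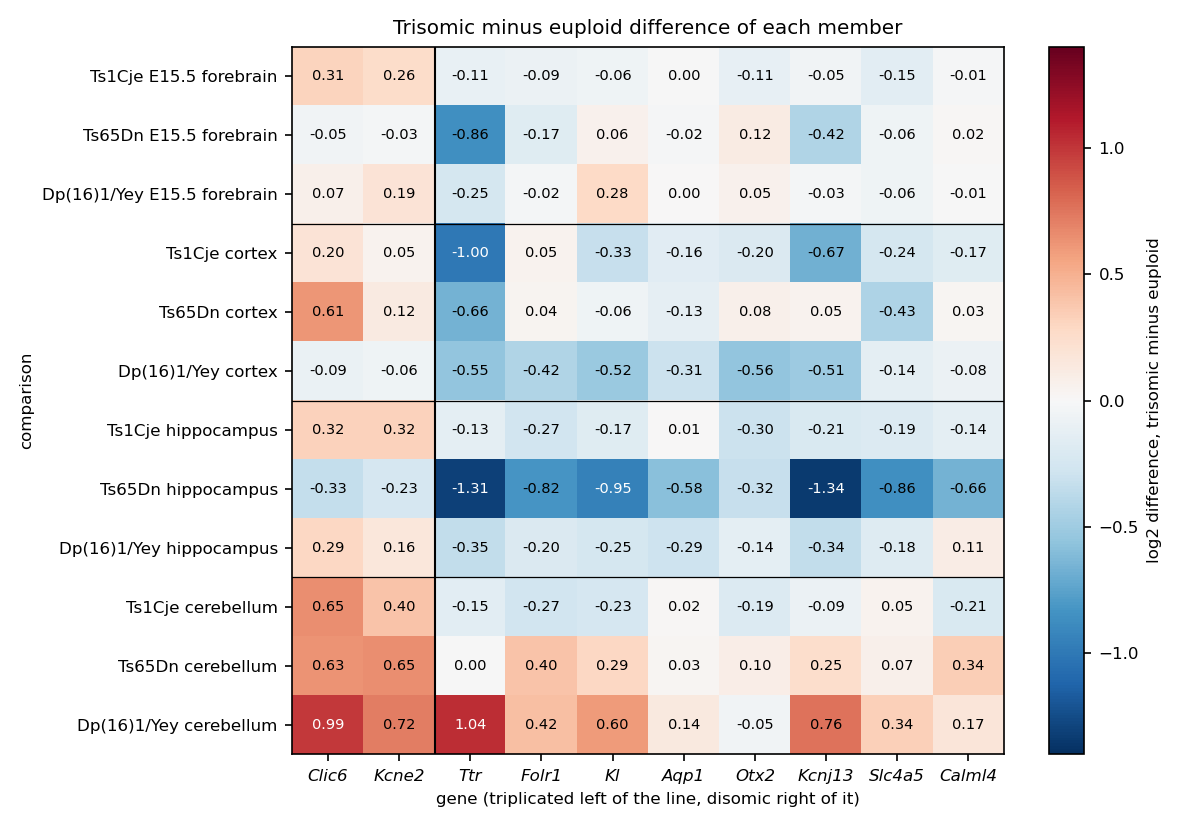
The map gives the log2 difference of trisomic minus euploid group means for each gene (columns, triplicated genes left of the line) in each of the 12 comparisons (rows), coloured by size and sign. Blue dominates among the disomic genes, most of all in Ts65Dn hippocampus (-1.31 for Ttr), while Clic6 and Kcne2 are red in 9 of 12 comparisons each.

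Clic6 encodes a member of the chloride intracellular channel family. In Ts1Cje E15.5 forebrain Clic6 was 8.53, 8.41, 8.51, 8.38 and 8.47 in trisomic embryos, against 8.11, 8.17, 8.13, 8.09 and 8.25 in euploid embryos. Every trisomic embryo was above every euploid one. The log2 difference was 0.31 (SE 0.04), or 1.24-fold (95% interval 1.16 to 1.33), with an adjusted p of 0.0151 in limma, in a comparison in which 0.259% of probe sets were called. In Ts65Dn E15.5 forebrain the lowest, median and highest Clic6 signals were 6.27, 7.59 and 8.28 in trisomic embryos, against 7.13, 7.32 and 7.75 in euploid embryos. The 2 embryos with little Ttr were also lowest for Clic6, at 6.27 and 6.43, and the embryo highest for Clic6, at 8.28, had the highest Ttr of the trisomic group, so the trisomic values lay on both sides of the euploid range. The fold was 0.964 (0.64 to 1.45), and no fit without both of the 2 low embryos was run. In Dp(16)1/Yey forebrain Clic6 gave 7.02, 7.59 and 7.82 in trisomic embryos, against 7.26, 7.47 and 7.71 in euploid embryos, a fold of 1.05 (0.877 to 1.25) with overlapping groups.

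In adult cortex the level of Clic6 was low and its spread wide. Ts65Dn cortex gave Clic6 signals of 6.64, 6.55, 6.65, 6.16 and 6.58 in trisomic mice, against 6.02, 5.64, 6.15, 5.40 and 6.30 in euploid mice. Of the trisomic mice 4 were above all euploid ones, and the difference of 0.61 (SE 0.16), or 1.53-fold (1.21 to 1.94), had an adjusted p of 0.387 in limma. In Ts1Cje cortex Clic6 was 5.93, 5.73, 6.32, 6.06 and 6.23 in trisomic mice, against 5.71, 5.44, 5.49, 6.47 and 6.17 in euploid mice (1.15-fold). For Dp(16)1/Yey cortex it was 6.81, 5.70, 5.81, 5.90 and 6.71 in trisomic mice, against 6.50, 6.65, 6.67, 5.66 and 5.90 in euploid mice (0.939-fold). Both comparisons overlapped over most of their range.

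In the hippocampi of Ts65Dn and Dp(16)1/Yey the samples with little choroid plexus signal were the lowest for Clic6. Ts1Cje hippocampus had no such sample. In Ts1Cje hippocampus Clic6 was 8.42, 8.40, 8.10, 7.29 and 7.40 in trisomic mice, against 7.11, 8.02, 7.89, 7.59 and 7.37 in euploid mice (1.25-fold, 0.877 to 1.79). For Ts65Dn hippocampus it was 5.86, 7.55, 5.44, 8.01 and 7.89 in trisomic mice, against 7.66, 6.84, 7.41, 7.36 and 7.13 in euploid mice (0.796-fold, 0.408 to 1.55). The 2 trisomic mice with little Ttr were the lowest of the table, whereas 2 others were its highest. Without those 2 mice the Clic6 fold in Ts65Dn hippocampus was 1.45, with an unadjusted p of 0.00834 and an adjusted p of 0.645 in limma. In Dp(16)1/Yey hippocampus Clic6 was 5.52, 8.40, 8.34, 7.83 and 8.48 in trisomic mice, against 7.65, 7.86, 8.27, 5.73 and 7.59 in euploid mice (1.23-fold, 0.526 to 2.86). The fold there was 1.34 without the 1 low animal of each genotype.

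Cerebellum gave the clearest separation in adults. In Ts1Cje cerebellum Clic6 was 8.20, 8.11, 8.08, 8.05 and 8.24 in trisomic mice, against 7.39, 7.09, 7.76, 7.33 and 7.85 in euploid mice. All trisomic mice were above all euploid ones. The difference of 0.65 (SE 0.12), or 1.57-fold (1.31 to 1.88), was called with an adjusted p of 0.0627 in limma (0.429% of probe sets were called in this comparison). The call was lost when any 1 of 7 animals was left out, all 5 trisomic and 2 of the euploid mice, with an adjusted p of 0.121 to 0.182 and a fold of 1.53 to 1.59.

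In Ts65Dn cerebellum Clic6 was 7.84, 7.86, 7.85, 7.66 and 7.87 in trisomic mice, against 7.75, 7.21, 6.95, 6.74 and 7.27 in euploid mice. A single euploid mouse, at 7.75, lay above the lowest trisomic one. The fold was 1.55 (1.25 to 1.93) with an adjusted p of 0.249 in limma, and without that euploid mouse the adjusted p was 0.0106. Dp(16)1/Yey cerebellum gave 7.99, 8.24, 7.91, 8.08 and 8.33 in trisomic mice, against 7.21, 7.03, 8.15, 7.27 and 5.92 in euploid mice. The fold, 1.99 (1.29 to 3.06), had an adjusted p of 0.520 and rested in part on the euploid mouse at 5.92, the one with little Ttr: without that mouse it was 1.62. Without the euploid mouse at 8.15 the fold was 2.38 and was called (adjusted p = 0.0763, limma).

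Kcne2 encodes a small accessory subunit of voltage-gated potassium channels, and loss of it in mice is known to disturb ion transport in the choroid plexus. In Ts1Cje E15.5 forebrain Kcne2 was 8.31, 8.14, 8.19, 7.99 and 8.14 in trisomic embryos, against 7.93, 7.83, 7.92, 7.995 and 7.80 in euploid embryos. The lowest trisomic and the highest euploid embryo were both at about 8.0. The fold was 1.19 with an adjusted p of 0.282 in limma, and it was called (adjusted p = 0.0942) without the trisomic embryo at 7.99. In Ts65Dn E15.5 forebrain Kcne2 ran from 6.47 to 7.84 in trisomic embryos, against 6.82 to 7.54 in euploid embryos (0.979-fold), and in Dp(16)1/Yey forebrain from 7.16 to 7.67 in trisomic embryos, against 6.99 to 7.55 in euploid embryos (1.14-fold). Both pairs of groups overlapped.

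Adult Kcne2 was dim in cortex, between 5.35 and 6.19 in trisomic mice, against 5.30 to 6.16 in euploid mice of the 3 models, with folds of 0.961 in Dp(16)1/Yey, 1.09 in Ts65Dn and 1.04 in Ts1Cje. In Ts65Dn cerebellum Kcne2 was 7.11, 7.15, 6.70, 7.42 and 7.02 in trisomic mice, against 7.11, 6.39, 6.23, 6.29 and 6.12 in euploid mice. Of the 5 euploid mice, 4 were below all trisomic ones, and the fifth, the mouse that was also highest for Clic6, lay among them. The fold was 1.57 (1.21 to 2.04) with an adjusted p of 0.409 in limma, and it was called without that mouse (adjusted p = 0.0176). In Ts1Cje cerebellum Kcne2 was 7.17, 7.28, 6.74, 6.95 and 7.51 in trisomic mice, against 6.85, 6.43, 6.77, 6.56 and 7.04 in euploid mice (1.32-fold, 1.07 to 1.63). Dp(16)1/Yey cerebellum gave 7.28, 7.22, 6.94, 6.97 and 7.45 in trisomic mice, against 6.29, 6.21, 7.38, 6.77 and 5.62 in euploid mice (1.65-fold, 1.14 to 2.38, and 1.42-fold without the euploid mouse at 5.62). Trisomic mice were thus mostly higher in all 3 cerebella, with 1 or more euploid mice among them, and neither of these last 2 folds was called (adjusted p = 0.674 for each, limma).

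In hippocampus Kcne2 was 7.92, 7.87, 7.24, 6.48 and 6.90 in trisomic Ts1Cje mice, against 6.51, 7.49, 7.00, 6.89 and 6.90 in euploid mice (1.25-fold). Ts65Dn hippocampus gave 5.74, 7.08, 5.90, 7.33 and 7.17 in trisomic mice, against 7.15, 6.51, 6.80, 7.08 and 6.85 in euploid mice (0.851-fold, and 1.25-fold without the 2 low mice). For Dp(16)1/Yey hippocampus Kcne2 was 5.40, 7.41, 7.78, 7.03 and 7.36 in trisomic mice, against 7.06, 7.13, 7.35, 5.76 and 6.87 in euploid mice (1.12-fold, and 1.22-fold without the low animal of each genotype). The low samples were again those with little Ttr, and all 3 comparisons overlapped.

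Over the 12 comparisons Clic6 was called 2 times and Kcne2 0 times, 2 of 24 tests, against 0.168% of all tests called as higher. With the methods' t-test the Clic6 call of Ts1Cje cerebellum was lost (adjusted p = 0.414), and 1 fit of all groups, which share an estimate of the spread, called neither. For Kcne2 the limma test gave an unadjusted p under 0.05 in 4 comparisons, and for Clic6 in 5, against 6.24% of all tests. Both genes were higher in trisomic animals in 9 of 12 comparisons. The median fold was 1.23 for Clic6 (0.796 to 1.99) and 1.13 for Kcne2 (0.851 to 1.65). Trisomic samples lay wholly above euploid samples in 2 of 12 comparisons for Clic6 and in 0 of 12 for Kcne2. The share of all probe sets that separated in this way is not given here, so nothing is drawn from these counts.

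**Figure D3:**
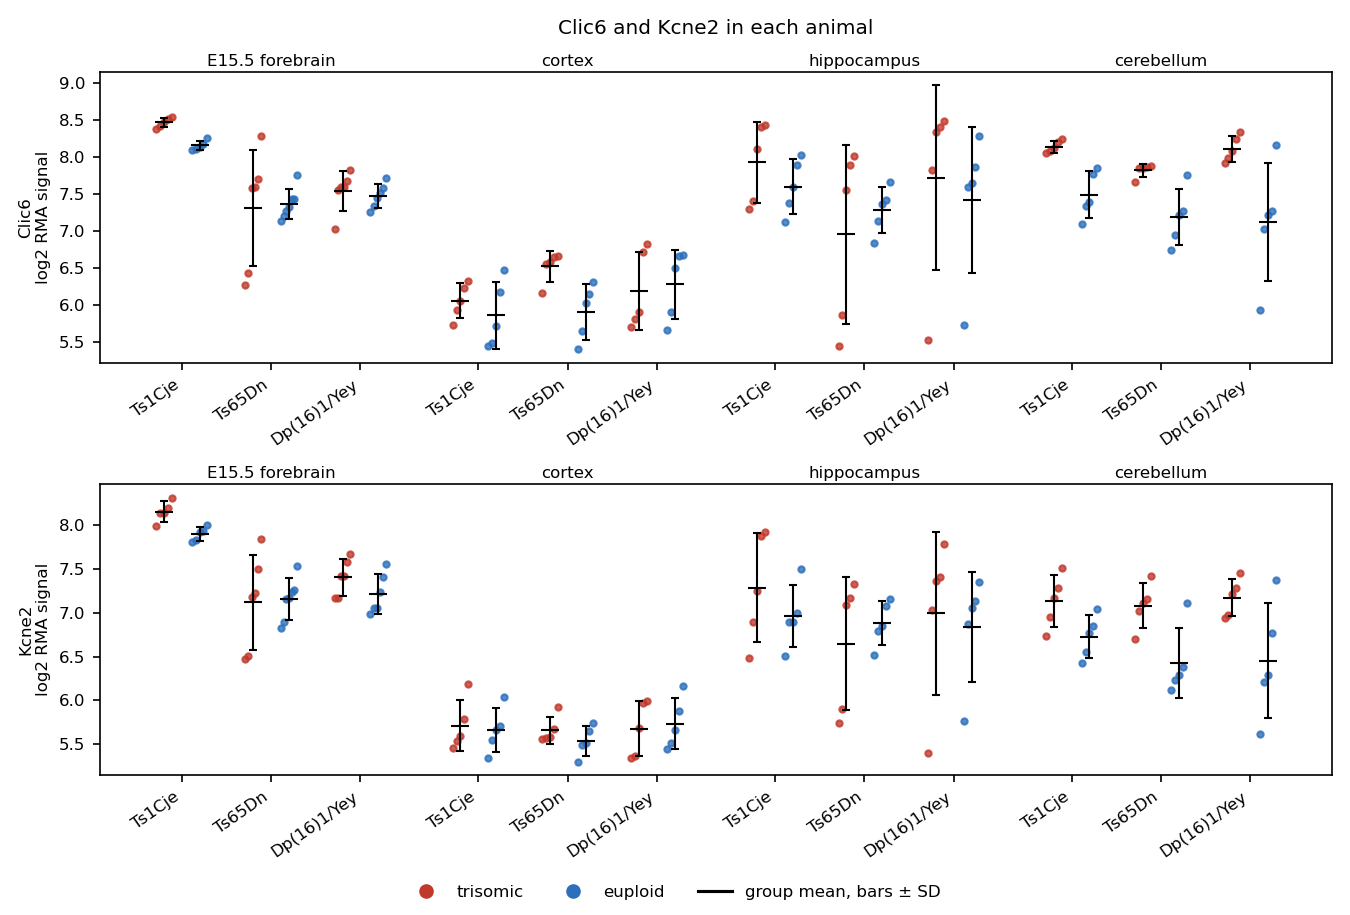
Each point is an animal, with log2 RMA signal of Clic6 (upper panel) and Kcne2 (lower panel) by tissue and model, trisomic left of euploid, and the group mean with bars of 1 SD (n = 5 to 7 per group). Clic6 separates without overlap only in Ts1Cje E15.5 forebrain (8.38 to 8.53 against 8.09 to 8.25) and Ts1Cje cerebellum (8.05 to 8.24 against 7.09 to 7.85).

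Since Clic6 and Kcne2 dropped in the samples in which the disomic genes dropped, both were also compared between animals of equal disomic signal, with that signal as a covariate of the limma fit on all probe sets. At equal disomic signal, Clic6 and Kcne2 were higher in trisomic animals in 12 of 12 comparisons each. The share of all probe sets with a positive difference in this fit is not given here. In 10 of the 12 tables the disomic signal was lower in trisomic animals. There the covariate raises the trisomic difference of any gene that rises with that signal. The median fold was 1.40 for Clic6 (1.05 to 1.72) and 1.20 for Kcne2 (1.08 to 1.50). The median SE of the log2 difference was 0.12 for Clic6 at equal disomic signal, against 0.21 as measured, and 0.11 for Kcne2, against 0.17. The SE was smaller in 11 of 12 comparisons for Clic6 and in 10 of 12 for Kcne2.

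At equal disomic signal 3 of the 24 tests were called, against 0.155% of all tests (0.137% as higher). In Ts1Cje cerebellum Clic6 was 1.72-fold higher in trisomic mice (1.46 to 2.03, adjusted p = 0.0140, limma) and Kcne2 1.50-fold (1.28 to 1.77, adjusted p = 0.0761), where 0.358% of probe sets were called. In Ts1Cje hippocampus Clic6 was 1.41-fold higher (1.26 to 1.59, adjusted p = 0.0318, limma), where 0.306% were called. All 3 calls fell in Ts1Cje adults. The Clic6 call in Ts1Cje hippocampus held without any 1 animal (adjusted p 0.0279 to 0.0866), and that in Ts1Cje cerebellum was lost only without 1 euploid mouse (adjusted p = 0.117, 1.60-fold). The Kcne2 call was lost without any 1 of 6 animals (adjusted p 0.102 to 0.263). Leaving out 1 animal added a call of Clic6 in Ts65Dn cortex (adjusted p = 0.0961, without 1 euploid mouse), in Dp(16)1/Yey hippocampus (0.0365, without 1 euploid mouse), in Ts65Dn hippocampus (0.0549 and 0.0700, without either of the 2 trisomic mice with little Ttr) and in Dp(16)1/Yey cerebellum (0.0099 and 0.0661, without either of 2 euploid mice). None of the 3 was called by the same regression with each gene's own variance, without limma's moderation (adjusted p 0.237 to 0.409), whereas 1 fit of all groups called 9 of the 24. With the mean of Ttr, Folr1 and Kcnj13 as the covariate there were also 3 calls, but only Clic6 in Ts1Cje cerebellum was shared (adjusted p = 0.0894, limma). Clic6 in Ts1Cje hippocampus (0.117) and Kcne2 in Ts1Cje cerebellum (0.363) were lost, and Kcne2 in Ts1Cje E15.5 forebrain (0.0581) and Clic6 in Ts65Dn E15.5 forebrain (0.0641) were gained. Clic6 in Ts1Cje E15.5 forebrain was 1.25-fold at equal disomic signal, against 1.24 as measured, but was not called (adjusted p = 0.338, limma). There the disomic signal ran from 8.88 to 8.94 in trisomic and from 8.92 to 9.02 in euploid embryos. The 2 genotypes thus shared little of its range, and the slope of Clic6 on it was 0.10 (SE 0.85). The part of this in the lost call was not tested.

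By tissue, the Clic6 folds at equal disomic signal were 1.41 to 1.48 in the 3 hippocampi, 1.38 to 1.72 in the cerebella, 1.16 to 1.59 in the cortices and 1.05 to 1.25 in E15.5 forebrain. Kcne2 folds were 1.26 to 1.42 in hippocampus, 1.34 to 1.50 in cerebellum, 1.08 to 1.11 in cortex and 1.10 to 1.15 in E15.5 forebrain. Embryo folds could change with the covariate, and the disomic signal of embryos holds genes at the level of silent genes. With the mean of Ttr, Folr1 and Kcnj13, Kcne2 in Ts1Cje E15.5 forebrain was 1.29-fold, against 1.15. Clic6 in Ts65Dn E15.5 forebrain was then 1.34-fold, against 1.15. The other embryo folds with that covariate are not given. With all 8 disomic genes, the adult median was 1.465 for Clic6 and 1.26 for Kcne2. The 95% interval of the fold lay above 1 in 10 of 12 comparisons for Clic6, against 5 as measured, and in 6 of 12 for Kcne2, against 4 as measured. It held 1.5, the ratio of 3 copies to 2, in 8 of 12 comparisons for Clic6, and also in 8 as measured, and in 4 of 12 for Kcne2, against 5 as measured. The limma test gave an unadjusted p under 0.05 in 16 of the 24 tests, 10 for Clic6 and 6 for Kcne2, against 7.55% of all tests. As a plain difference, Clic6 minus the disomic signal was higher in all trisomic than in all euploid samples in 6 of 12 comparisons, and Kcne2 minus the disomic signal in 3 of 12. The mean disomic signal was lower in trisomic animals in 10 of the 12 tables, and there subtracting it raises the trisomic difference of any gene. The share of all probe sets that separated in this way is not given here, so nothing is drawn from these counts.

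The change was greatest where samples with little signal fell in 1 genotype. In Ts65Dn hippocampus the Clic6 fold was 1.48 (1.25 to 1.77) at equal disomic signal, against 0.796 as measured, and the Kcne2 fold 1.26 (1.07 to 1.49), against 0.851. Dp(16)1/Yey cerebellum ran the other way, at 1.52 (1.27 to 1.82) for Clic6, against 1.99 as measured, and at 1.34 (1.07 to 1.67) for Kcne2, against 1.65. The adjusted p values in limma at equal disomic signal were 0.167 and 0.548 for Clic6 and Kcne2 in Ts65Dn hippocampus, and 0.140 and 0.569 in Dp(16)1/Yey cerebellum. Without the 5 samples that stood apart, the Ts65Dn hippocampus values were 1.48 for Clic6 and 1.26 for Kcne2, and Clic6 in Dp(16)1/Yey cerebellum was called at 1.51-fold (adjusted p = 0.0667, limma).

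**Figure D4:**
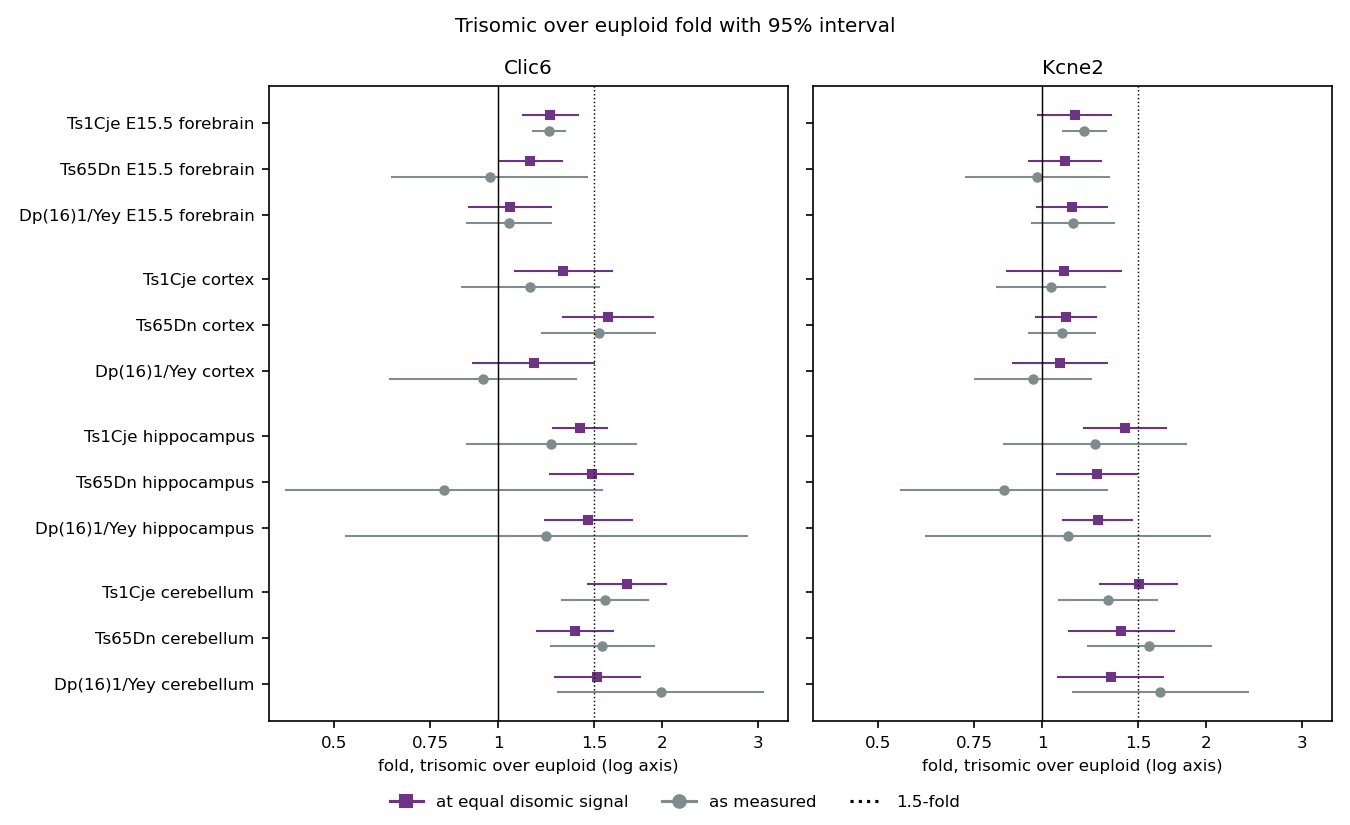
Points give the trisomic over euploid fold of Clic6 (left) and Kcne2 (right) on a log axis with its 95% interval, at equal disomic signal (purple squares) and as measured (grey circles), for the 12 comparisons; the solid line is 1 and the dotted line 1.5. At equal disomic signal all points lie right of 1 and the hippocampus folds of Clic6 come together at 1.41 to 1.48.

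The same fit gives the slope of each gene on the disomic signal within genotypes, the log2 change of the gene per log2 unit of the disomic signal. Of 24 slopes of Clic6 and Kcne2, 10 were called, all positive, against 0.128% of all slopes called as positive. These were the slopes of both genes in the 3 hippocampi, in Ts65Dn E15.5 forebrain and in Dp(16)1/Yey cerebellum, the tables with the widest range of disomic signal outside cortex. Called slopes of Clic6 were 0.907 to 1.49 (adjusted p 1.93e-05 to 0.0025, limma) and those of Kcne2 were 0.664 to 1.03 (adjusted p 4.2e-05 to 0.0783). In hippocampus the Clic6 slope was 1.24 in Dp(16)1/Yey, 1.05 in Ts65Dn and 1.00 in Ts1Cje, so that Clic6 rose and fell about as much as the disomic genes. Kcne2 had slopes of 0.88, 0.66 and 1.03 in the same 3 tables. Slopes were positive in 12 of 12 tables for Clic6 and in 10 of 12 for Kcne2. The Kcne2 slope in Dp(16)1/Yey cerebellum lost its call without any 1 of 7 animals (adjusted p 0.102 to 0.190), and without 1 euploid mouse the Clic6 slope in Dp(16)1/Yey cortex was called (adjusted p = 0.0517). Without the 5 samples that stood apart 5 slopes were called. Those of both genes in Ts65Dn E15.5 forebrain were among them, but none of the left-out samples was an embryo. No fit without both of the trisomic Ts65Dn embryos with little Ttr was run. Without the 5 samples, the slopes in Ts65Dn hippocampus were 1.14 for Clic6 and 0.70 for Kcne2. Neither was called (adjusted p 0.230 for Clic6 and 0.395 for Kcne2, limma). In Dp(16)1/Yey hippocampus the slopes were then 0.89 for Clic6 and 0.93 for Kcne2, also without a call (adjusted p 0.410 and 0.256, limma). The slope of Clic6 in Dp(16)1/Yey cerebellum lost its call as well (0.119). The slope of Clic6 in Dp(16)1/Yey cerebellum was 1.50 without the low sample, against 0.907 with it. That of Kcne2 was 1.70 (adjusted p = 0.0402), against 0.708.

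**Figure D5:**
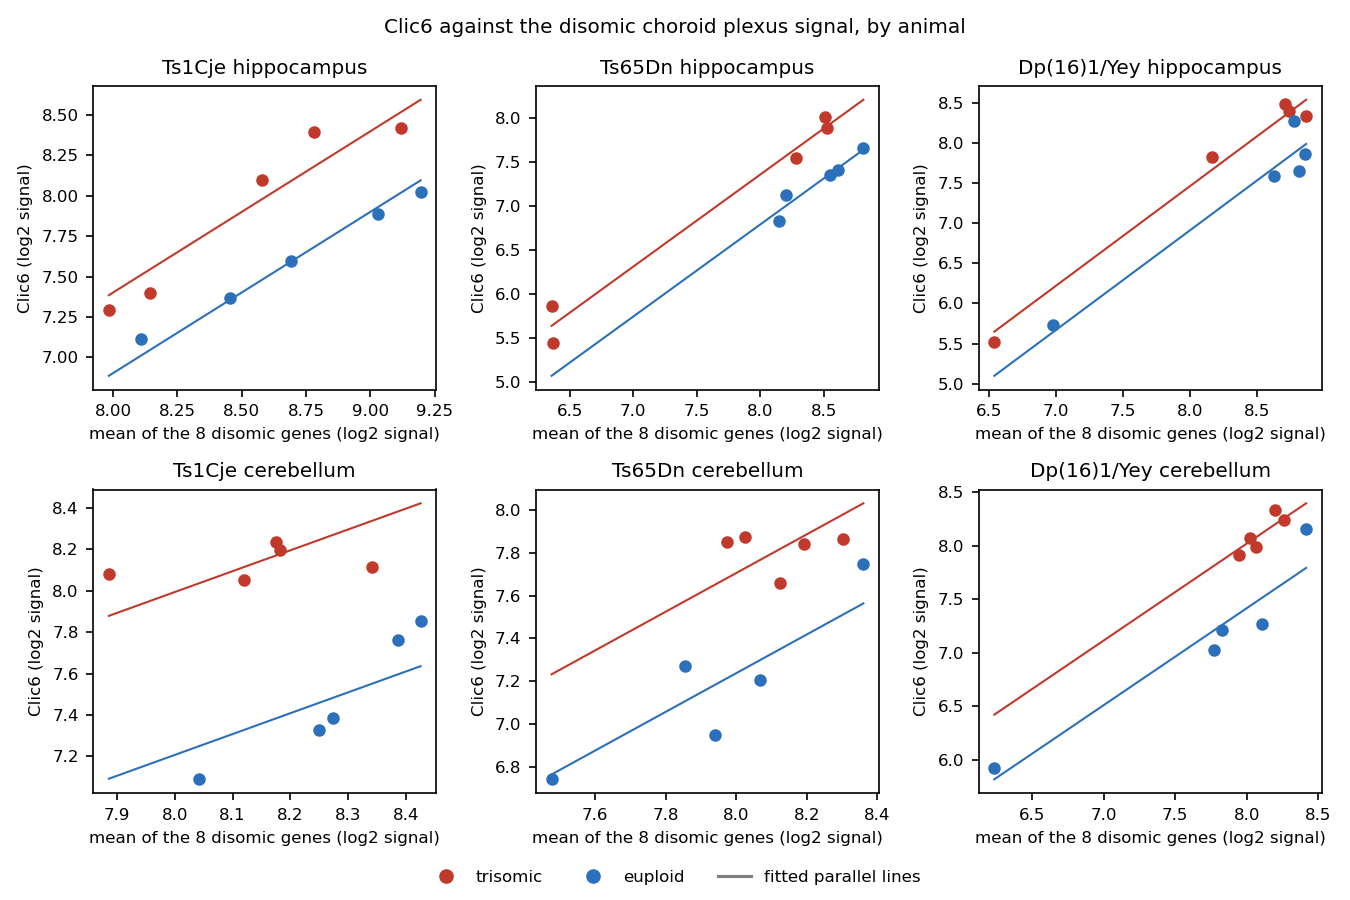
Each point is an animal, with the mean log2 signal of the 8 disomic genes on the x axis and the log2 signal of Clic6 on the y axis, in the hippocampi (upper row) and cerebella (lower row) of the 3 models; the lines are the parallel lines of the limma fit. The trisomic line lies above the euploid line in each panel, by 0.50 to 0.57 log2 units in the hippocampi and 0.47 to 0.79 in the cerebella.

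Whether the trisomic differences themselves differed between models or between adult regions was tested in 21 contrasts, with the animal as a block. None of the 210 tests of the 10 genes was called by limma, against 0.0435% of all tests, and 17 had an unadjusted p under 0.05. The share of all probe sets under that p is not given for these contrasts. The smallest adjusted p was 0.447, for Calml4, whose difference was 1.00 log2 units (SE 0.29) higher in Ts65Dn cerebellum than in Ts65Dn hippocampus. In the same contrast the difference of effects was 1.22 for Folr1 and 1.58 for Kcnj13. Without the 5 samples that stood apart these were 0.45 for Calml4, 0.29 for Folr1 and 0.24 for Kcnj13, again with no call, and the smallest adjusted p of the 10 genes was 0.774. Clic6 had its smallest p in Dp(16)1/Yey cerebellum minus cortex, at 1.08 log2 units (SE 0.45, adjusted p = 0.931), and 0.79 (SE 0.31) without those samples. No model or region was shown to differ from another for these genes.

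For comparison, 14 genes of the triplicated segment near Clic6 and Kcne2 were followed in the same fits. Of their 168 tests 66 were called, all as higher (39.3%, against 0.168% of all tests called as higher), and 161 differences were positive. Called folds ran from 1.24 to 1.53, and the median over all tests was 1.295. Son, an RNA-binding splicing factor, had a median fold of 1.375 and was called in 8 comparisons, and Cryzl1 had 1.34 and also 8 calls. Rcan1, the inhibitor of calcineurin that lies between Kcne2 and Clic6, had a median of 1.33 and 6 calls. Its neighbour Smim11 had 1.275 and 6 calls. Kcne1, the paralog of Kcne2 in the same stretch, had a median fold of 0.991 (0.920 to 1.08) and no call, and Runx1 and Setd4 had 1.09 each and no call. The signals of Kcne1, Runx1 and Setd4 are not set against the level of silent genes here, so nothing is drawn from their folds. At equal disomic signal 52 of the 168 tests were called, against 0.155% of all tests, and the median fold of the list was 1.29. As measured, the medians of Clic6 (1.23) and Kcne2 (1.13) lay below that of the list, and at equal disomic signal that of Clic6 (1.40) lay above it and that of Kcne2 (1.20) below. These orders were not tested.

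A wider list of 32 choroid plexus genes, of which 31 were measured, had 0 of 372 tests called (24 with an unadjusted p under 0.05, limma) and 133 positive differences. Over all probe sets 6.24% of the tests had an unadjusted p under 0.05 in limma. Positive differences made up 43.6% to 59.3% of all probe sets in a comparison. The median log2 difference of the wider list had the same sign as that of the disomic genes in 10 of 12 comparisons. In Ts65Dn hippocampus 27 of the 31 genes were lower in trisomic mice, with a median of -0.31, against a median of 0.03 over all probe sets. Without the 2 low trisomic mice 9 of 31 were lower, and the median was 0.05, against 0.04 over all probe sets. In Dp(16)1/Yey cerebellum 25 of 31 were higher, with a median of 0.15, against -0.01 over all probe sets. Without the low euploid mouse 22 of 31 were higher, with a median of 0.05. The 18 ependymal genes, markers of the ciliated cells that line the ventricles, had a median of 0.01 in Ts65Dn hippocampus and 0.00 in Dp(16)1/Yey cerebellum (0.11 and -0.01 without the low samples), with 0 of 216 tests called over all comparisons (12 with an unadjusted p under 0.05). The 17 meningeal genes had a median of -0.04 and 0.13 in the same 2 comparisons (0.08 and 0.12 without the low samples), and 1 of 204 tests was called (17 with an unadjusted p under 0.05). That gene was Dcn, which encodes decorin of connective tissue, higher in trisomic Ts1Cje cerebellum at 9.73, against 9.23 in euploid mice (1.41-fold, adjusted p = 0.00474, limma). In that comparison the median of the meningeal list was -0.06, and 10 of its 17 genes were lower in trisomic mice. Elsewhere the meningeal median was -0.14 in Dp(16)1/Yey cortex, with 16 of 17 genes lower, and the ependymal median was -0.14 in Ts1Cje hippocampus, with 17 of 18 lower, where the wider choroid plexus median was -0.08 and -0.13. Differences between the lists were not tested. The part of meninges or ependyma in the Clic6 and Kcne2 values was not tested.

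Finally, genes were ranked by how closely they followed the disomic signal, as Pearson's r of values centred within table and genotype. This is a description over samples that share animals and arrays, and the disomic genes are part of the signal they are ranked on. Over the 90 adult samples the closest genes outside the set were F5 (0.97), Ecrg4 (0.95), Enpp2 (0.94), Tmem72 (0.93), Lbp (0.92), Sostdc1 (0.92), Drc7 (0.91), Prlr (0.89), Rbm47 (0.89) and Slc2a12 (0.89). Of these, F5, Ecrg4, Enpp2, Tmem72, Sostdc1 and Prlr were on the wider choroid plexus list. Clic6 had an r of 0.92 and ranked 11 of all 21225 probe sets, and Kcne2 an r of 0.84 and rank 23. By region, r was 0.98 for Clic6 and 0.95 for Kcne2 in hippocampus, 0.90 and 0.80 in cerebellum, and 0.79 and 0.58 in cortex. The ranking was not repeated without the 5 samples that stood apart. Among the disomic genes Kcnj13 (0.97), Folr1 (0.96) and Kl (0.95) followed the signal most closely in adults, and Otx2 least, at 0.76.

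Over the 35 embryos the order was different. Ttr had an r of 0.92, Clic6 followed at 0.89 and rank 3, and Kcne2 had 0.73 and rank 48. Otx2 (0.31, rank 2039) and Kl (0.18, rank 3796) had the lowest r in embryos among the disomic genes, and Kl was at the level of silent genes in 2 of the 3 embryo tables. The closest genes outside the set were Clec2d (0.89), Cldn1 (0.88), Htr2c (0.87), Sulf1 (0.87), Sostdc1 (0.87), Rbm47 (0.85), Wdr63 (0.82), Nid2 (0.80), Dynlrb2 (0.80) and Tmem64 (0.77). Sostdc1 and Rbm47 were among the 10 closest genes at both ages. Most of the spread in embryos came from the 6 trisomic Ts65Dn embryos, whose disomic signal had an SD of 0.50, against 0.02 to 0.14 in the other embryo groups.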

How the data were processed

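RNA from E15.5 forebrain and from adult cortex, hippocampus and cerebellum was hybridised to Affymetrix Mouse Gene 1.0 ST arrays. The authors normalized each model and tissue by RMA with a custom probe annotation of 1 probe set per Entrez gene and deposited log2 signals, without pooling animals. Quantile normalization in RMA gives the arrays of a table the same distribution of signals, so a change is relative to the other genes. Genome build and RMA version are not given in the sources used here. Of 21225 probe sets, 20768 were named by gene ID through the RefSeq annotation (GRCm38.p6), which also gave the sequences, and 457 were not named.

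Arrays numbered 128. Repeated arrays of 2 animals were averaged, giving 125 tissue samples. The labels give 1 more Ts65Dn embryo of each genotype than the design text of the study, and the labels were followed. Trisomic animals were compared with their euploid littermates in each table with limma 3.58.1 (R 4.3.3, statmod 1.5.0), whereas the methods used an unpaired t-test, run here as an alternative. The p-values of the 12 tables were adjusted together (Benjamini-Hochberg, adjusted p under 0.10). The fit at equal disomic signal added the mean of the 8 disomic genes as a covariate. Differences between effects were tested with the animal as a block, since an adult gave 3 regions (correlation 0.0783). The labels do not give the litter, so littermates could not be matched within a table and litter was not modelled. The fits were tested on simulated data. Tables and plots were made in Python 3.11.15 with numpy 2.4.6, pandas 2.3.3 and matplotlib 3.10.9.

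All 10 genes were named. Of the meningeal list the called gene was named, and no gene of the ependymal list. The 10 genes closest to the disomic signal at each age were named, some of them on the wider choroid plexus list. Son, Cryzl1, Rcan1, Smim11, Kcne1, Runx1 and Setd4 were named after their values were seen, and other triplicated neighbours that were called were not named. The members and lists were chosen with earlier results of these data known. The precision is limited by the number of animals.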

Additional observations from a re-analysis of the deposited data

Results flagged for a closer look

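In 26 of 264 groups, each a gene or the disomic signal in the trisomic or euploid animals of 1 table, the highest or lowest animal lay far from the others by Dixon's test. Of these, 25 were among the 240 groups of the 10 genes. Chance alone marks about 1 group in 20. The 26 came from 13 combinations of animal and tissue, and all values here are log2 signals.

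Dp(16)1/Yey hippocampus held 13 of them. A single trisomic mouse was far below its group for Clic6 (5.52), Ttr (10.29) and Kcnj13 (6.74). A single euploid mouse was far below its group for Clic6 (5.73), Ttr (11.47), Folr1 (6.35), Kl (7.90), Aqp1 (5.68), Otx2 (6.11), Kcnj13 (7.996), Slc4a5 (5.45) and Calml4 (4.88), and so was its disomic signal (6.98). In that euploid mouse 9 of the 10 genes were low together by this test, and Kcne2, which the test did not mark, was also the lowest of its group.

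Another euploid mouse was low in Dp(16)1/Yey cerebellum for Ttr (8.24) and Kl (5.38), and the same mouse was low for Ttr in cortex (8.37). A different euploid mouse was low for Aqp1 in Dp(16)1/Yey cortex (5.69). Of the Dp(16)1/Yey embryos, 1 trisomic embryo was low for Clic6 (7.02) and high for Kl (6.45). In Ts1Cje cortex 1 trisomic mouse was high for Folr1 (6.79).

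In Ts65Dn mice 1 trisomic animal was the lowest of its group for Clic6 in both cortex (6.16) and cerebellum (7.66). Another was low for Otx2 in hippocampus (5.48), and a further trisomic animal was high for Aqp1 in cerebellum (6.58). Among euploid Ts65Dn cerebella, 1 mouse was high for Kcne2 (7.11) and another low for Folr1 (6.49).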

How the results depend on the processing

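The 2 calls of Clic6 and Kcne2 became 1 at a threshold of 0.05, 1 with the methods' t-test and 0 in 1 fit of all 24 groups, and 1 to 4 when each animal was left out in turn. At equal disomic signal the 3 calls became 6 at a threshold of 0.20, 0 in the same regression without limma's moderation, 9 in 1 fit of all groups, 5 without dim probe sets and 5 with Ttr alone as covariate, and 1 to 4 when each animal was left out. With the mean of Ttr, Folr1 and Kcnj13 as covariate there were also 3, of which 1 was shared. The 10 called slopes became 6 in that regression, 17 in 1 fit of all groups and 5 without the samples of low disomic signal (an alternative chosen after seeing the data), and 9 to 12 when each animal was left out. With sex as a covariate in the embryos these 3 counts stayed at 2, 3 and 10. The wider choroid plexus list gained 1 call in 1 fit of all groups, Htr2c in Ts65Dn embryos (0.667-fold). The 1 meningeal call became 2 at a threshold of 0.20, 2 with adjustment within each comparison and 0 in 1 fit of all groups, and 1 to 2 when each animal was left out, with 2 only without 1 trisomic mouse of Ts65Dn cerebellum. The disomic and ependymal genes had 0 calls under every alternative run. The neighbour list had 53 to 98 calls, and 63 to 77 when each animal was left out. The cause of these changes was not tested.

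Directions were steadier than calls, in refits that share most of their animals. The difference at equal disomic signal was positive in 24 of 24 tests under every alternative and in 249 of 250 tests when each animal was left out (the exception was Kcne2 in Ts1Cje cortex without 1 trisomic mouse, -0.06 on the log2 scale). As measured, 18 of 24 were positive, 20 without the samples of low disomic signal, and 193 of 250 when each animal was left out.

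Without the block for animals the differences between effects again had 0 calls, with a smallest adjusted p of 0.538 in limma, against 0.447 with the block, 0.774 without the samples of low disomic signal and 0.291 to 0.444 under the other alternatives. No paired analysis was possible within a table, because the labels do not give the litter of an animal. Kl in the embryos of Dp(16)1/Yey and Ts65Dn, and Calml4 in embryos, cortex and Dp(16)1/Yey cerebellum, lay at the signal of silent genes, and leaving out dim probe sets kept 87 of the 96 disomic tests.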
